A study of Mus musculus with 8 samples.

Results

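Brg1 binding and EBF1 binding were examined at 7 genes that encode transcriptional repressors of lymphoid and blood cell development: Ikzf1, Ikzf2, Ikzf3, Bcl6, Bach2, Bcl11a and Gfi1. A peak belonged to one of these genes when its summit lay inside the gene body in GRCm38, or lay outside every protein-coding gene with that gene's bound the nearest within 100 kb. By this rule 24 peaks were found, of 5757 peaks in all 4 deposited peak lists. All 24 came from 1 list, that of Brg1 after dTAG-13, which holds 5206 peaks. The annotation holds 21887 protein-coding genes, and the rule used the names of these 7 and no measured value. The 7 names were, however, chosen with earlier results of these data known.

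Both proteins were mapped in A-MuLV transformed pro-B cells, a cultured model of an early B-lineage stage made with the Abelson leukaemia virus, in which an exogenous modified Ebf1 gene replaced the endogenous protein. EBF1 was precipitated from the genotype EBF1-dTAG_C and Brg1 from the genotype EBF1-dTAG_N, and each line carried the dTAG degron on EBF1 in the control as well as in the treated cells. Treated cells had received dTAG-13, the compound that sends a dTAG protein to degradation, at 0.5 µM for 6 h. Controls carry a treatment label of DMSO for 6 h and a title of 0 h. The 4 groups are thus DMSO and dTAG-13 for each antibody, with 1 library each, so no difference below has a replicate check. The 2 proteins were mapped in different lines, and EBF1 loss was not measured in the line used for Brg1.

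Brg1 (Smarca4) is the ATPase that drives the BAF chromatin remodelling complex, and EBF1 is a transcription factor that B-cell development requires. Ikaros, encoded by Ikzf1, is a zinc-finger protein needed for lymphoid development that can recruit the NuRD deacetylase complex, and Aiolos (Ikzf3) and Helios (Ikzf2) are its relatives. Bcl6 is a BTB zinc-finger repressor that acts through corepressors such as BCOR and protects pre-B cells at pre-B receptor signalling. Bach2 pairs with small Maf proteins to repress plasma cell and myeloid genes, Bcl11a is a zinc-finger repressor required for B-cell development, and Gfi1 is a repressor that works with the LSD1 demethylase.

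Depth limits what the lists can show. No source used here gives library totals, so depth was read from the fragment background recovered from each Brg1 peak. The lowest background was 0.607 fragments per base in the DMSO library and 2.15 in the dTAG-13 library, a ratio of 3.54. The Brg1 lists differ likewise in length, with 234 peaks in DMSO against 5206. The EBF1 lists held 312 peaks in DMSO and 5 after dTAG-13, and the depth of the EBF1 libraries was not read. As a check of the label, 8 of 10 pro-B marker genes had a Brg1 peak after dTAG-13, all but Rag1 and Rag2, against 12.2% of protein-coding genes. In DMSO, 5 of the 10 had a Brg1 peak (0.818% of protein-coding genes) and 3 had an EBF1 peak (1.28%). Expression was not measured, so the identity of the cells was checked by binding only.

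Sequence before the start sites is shown first for the 4 annotated start sites, of 3 genes, that had a Brg1 summit within 1 kb. Each run holds the 250 bases before the start, 5′ to 3′ along the gene, from RefSeq on GRCm38.p6. For Bcl6 (chr16:23988853-23989102, minus strand) the capitals mark the 34 bases that lay inside a Brg1 peak. For both Ikzf1 starts (upstream chr11:11685675-11685924, downstream chr11:11689927-11690176) and for Bcl11a (chr11:24080445-24080694), all on the plus strand, no base lay inside a peak. There the capitals mark matches to the motifs named further on.
Bcl6: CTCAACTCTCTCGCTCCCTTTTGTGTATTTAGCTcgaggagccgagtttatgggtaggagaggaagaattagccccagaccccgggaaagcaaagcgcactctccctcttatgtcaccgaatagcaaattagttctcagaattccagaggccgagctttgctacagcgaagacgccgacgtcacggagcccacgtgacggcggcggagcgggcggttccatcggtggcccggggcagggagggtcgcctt
Ikzf1 upstream start: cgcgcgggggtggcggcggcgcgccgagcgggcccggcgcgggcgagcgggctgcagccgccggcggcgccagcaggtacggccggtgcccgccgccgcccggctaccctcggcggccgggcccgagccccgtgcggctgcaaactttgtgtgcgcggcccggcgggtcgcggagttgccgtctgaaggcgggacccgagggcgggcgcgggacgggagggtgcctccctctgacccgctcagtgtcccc
Ikzf1 downstream start: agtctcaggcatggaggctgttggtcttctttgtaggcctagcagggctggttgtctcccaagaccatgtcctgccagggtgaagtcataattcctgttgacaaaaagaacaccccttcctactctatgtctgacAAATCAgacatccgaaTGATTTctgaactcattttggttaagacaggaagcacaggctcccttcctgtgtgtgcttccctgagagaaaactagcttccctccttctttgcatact
Bcl11a: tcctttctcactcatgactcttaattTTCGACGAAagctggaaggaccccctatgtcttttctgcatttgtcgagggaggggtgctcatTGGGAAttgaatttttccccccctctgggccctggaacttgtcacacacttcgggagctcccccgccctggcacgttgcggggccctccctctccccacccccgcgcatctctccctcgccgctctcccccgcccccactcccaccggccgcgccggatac

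The first question was whether EBF1 bound these repressor genes. None of the 7 had an EBF1 peak in DMSO, where 1.28% of protein-coding genes had one, and none had one after dTAG-13, where 0.0228% did. Bach2 came closest, with the nearest EBF1 summit of the DMSO list 354 kb from the gene body, a peak assigned to Ankrd6. Bcl6 followed at 821 kb, from a peak assigned to Adipoq. For the other 5 genes the nearest EBF1 summit in DMSO lay 1874 kb (Ikzf1), 2022 kb (Ikzf3), 2767 kb (Gfi1), 5761 kb (Ikzf2) and 10430 kb (Bcl11a) away. With a background of 1.28%, a list of 7 genes is too short for its 0 to set these genes apart from others. The EBF1 list after dTAG-13 held no peak on the chromosomes of 6 of the genes, and on chromosome 1 its peak lay 23791 kb from Ikzf2.

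The second question was where Brg1 was found in each condition. In DMSO none of the 7 genes had a Brg1 peak, against 0.818% of protein-coding genes. After dTAG-13 a Brg1 peak was assigned to 4 of the 7 (57.1%, exact Clopper-Pearson 95% interval 18.4 to 90.1%), against 12.2% of protein-coding genes. The 4 were Ikzf1 with 8 peaks, Bcl6 with 6, Bach2 with 6 and Bcl11a with 4, and the other 3 members, Ikzf2, Ikzf3 and Gfi1, had 0. Intervals on shares here cover counting error only, and not the choice of genes with earlier results known.

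The 4 bound genes carried many peaks each. Of all protein-coding genes, 1.26% (276 genes) had at least 4 Brg1 peaks after dTAG-13, and 2671 had any. Each of the 4 was among the 276, but the cutoff of 4 is the lowest count of these 4 genes. It was thus met by construction and does not set them apart. As many peaks as Ikzf1 or more were assigned to 38 genes, as many as Bcl6 and Bach2 or more to 87. Long genes can draw more peaks, and the bodies differ in length: 23.8 kb for Bcl6, 88.0 kb for Ikzf1, 97.0 kb for Bcl11a and 348 kb for Bach2. Bcl6 thus had as many peaks as Bach2 despite a much shorter body, with 3 of its 6 inside it against 4 of 6 at Bach2. With genes of any type as candidates, Bcl6 kept 3 peaks and Bach2 6. The genes without a peak were not all short, since Ikzf2 spans 156 kb and Ikzf3 81.4 kb, while Gfi1 spans 9.15 kb.

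**Figure D1:**
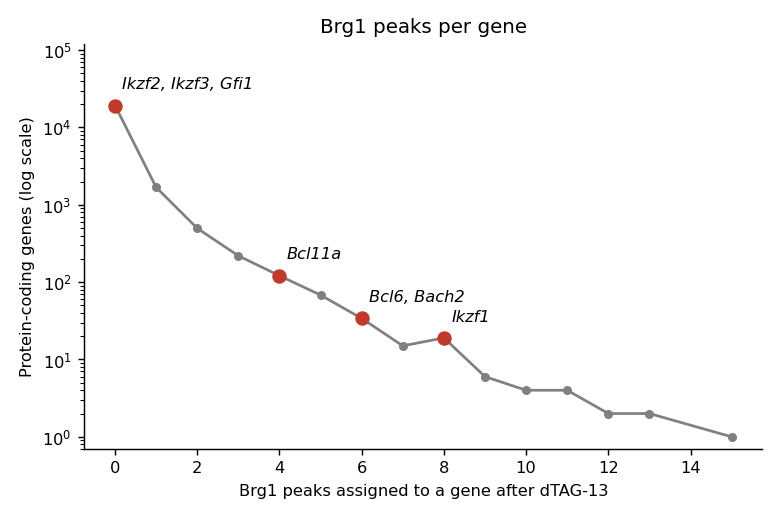
Number of protein-coding genes (y axis, log scale) by the number of Brg1 peaks assigned to each after dTAG-13 (x axis), with the repressor genes in red. Most genes have 0, as do Ikzf2, Ikzf3 and Gfi1, and Ikzf1 lies far to the right with 8.

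Ikzf1 (chromosome 11, 11684962 to 11772930) had the most Brg1 peaks of the 7 genes, all of them in the middle or lower part of the list. Its 8 summits held 20, 19, 17, 15, 18, 13, 15 and 17 fragments in their order along the gene. The authors' fold enrichment, the summit pileup plus 1 over the local background plus 1, ran from 3.09 to 4.37 with a median of 4.14. The highest by p ranked 2368 of 5206, so 54.2% of the list stood lower. None of the 8 reached a −log10 q of 5, against 6 of the 16 peaks of the other 3 genes and 2212 of all 5206.

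Of the Ikzf1 peaks, 4 lay in the first 10 kb of the gene body, with summits spread over 8079 bp. They lie at 11685973 to 11686399, 11689302 to 11689509, 11691554 to 11691868 and 11694147 to 11694575. The first of them had its summit 326 bp downstream of the upstream start site shown above, and the second 743 bp before the downstream start site. Near the 3′ end of the body were 2 more, at 11758544 to 11758748 and 11763382 to 11763667, which begin a group of 3 with the one 4296 bp beyond the gene (11776813 to 11777304). The remaining peak, 11667407 to 11667613, lay 17.4 kb before the gene, and its 20 fragments were the most of the 8. The summits of Ikzf1 thus formed 1 group around its start sites, 1 at its far end and 1 lone upstream peak.

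Bcl6 (chromosome 16, 23965050 to 23988866, minus strand) had 5 of its 6 Brg1 summits within 5 kb of its 5′ bound, over 5809 bp. Inside the gene, at 1693, 2246 and 3255 bp from that bound, were the peaks 23987026 to 23987248 (17 fragments), 23986460 to 23986788 (17) and 23985370 to 23985620 (16). Before the gene stood 23989069 to 23989273, with its summit 323 bp from the bound and 16 fragments. This is the peak whose edge reaches into the bases printed in capitals. A further peak, 23991337 to 23991556, had its summit 2554 bp before the bound and 17 fragments.

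The highest Bcl6 peak stood apart from that group. It lay 23.4 kb upstream at 24012099 to 24012441, with 24 fragments and a fold enrichment of 6.38, the largest fold of the 24 peaks. It ranked 406 of 5206, with 92.1% of the list lower. At the 5 peaks around the start the fold enrichment ran from 3.28 to 5.16. The nearest Brg1 peak of the DMSO list was 177 kb from the Bcl6 body (24165591 to 24165774) and assigned to no gene. With genes of any type as candidates, and not only protein-coding ones, 3 of the 6 Bcl6 peaks went to another gene. These were the 3 outside its body, the highest peak among them. Of the 4 Bcl11a peaks, 2 went to another gene.

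Bach2 (chromosome 4, 32238413 to 32586109, plus strand) had Brg1 peaks at its 5′ bound, inside the gene and past its 3′ end. At the 5′ bound, the peak 32237936 to 32238329 had its summit 338 bp before the gene and 12 fragments, and 32239749 to 32240129 had its summit 1688 bp inside and 13 fragments. These were among the weaker peaks of the list, with 7.7 and 8.09% of it lower. A pair of summits 666 bp apart followed 11.7 and 12.4 kb into the gene, at 32249566 to 32250250 (15 fragments) and 32250720 to 32251143 (17).

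The highest Bach2 peak, 32358619 to 32359198, lay 120 kb into the body, with 30 fragments and a fold enrichment of 5.98. By p it was the highest of all 24, at rank 273 of 5206. The last, 32588080 to 32588462, lay 2158 bp past the gene with 19 fragments. No Bach2 summit lay within 1 kb of the start site that the promoter table gives, which is inside the gene and 58.6 kb from the highest summit.

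Bcl11a (chromosome 11, 24076564 to 24173558, plus strand) had 2 weaker peaks at its start and 2 higher ones beyond its end. At the start, 24076007 to 24076302 had its summit 310 bp before the 5′ bound and 15 fragments. The other, 24081206 to 24081424, had 17 fragments and its summit 542 bp downstream of the start site whose upstream bases are printed above. Past the gene, 24184936 to 24185520 lay 11.6 kb from the body with 29 fragments and a fold enrichment of 5.79, at rank 340. The other, 24200428 to 24200736, lay 27.0 kb away with 20 fragments and a fold of 4.93. At Bcl11a, as at Bcl6 and Bach2, the highest peak assigned by the protein-coding rule lay away from the annotated start. With genes of any type as candidates, the highest Bcl6 peak and 2 of the 3 peaks outside Bcl11a went to another gene.

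**Figure D2:**
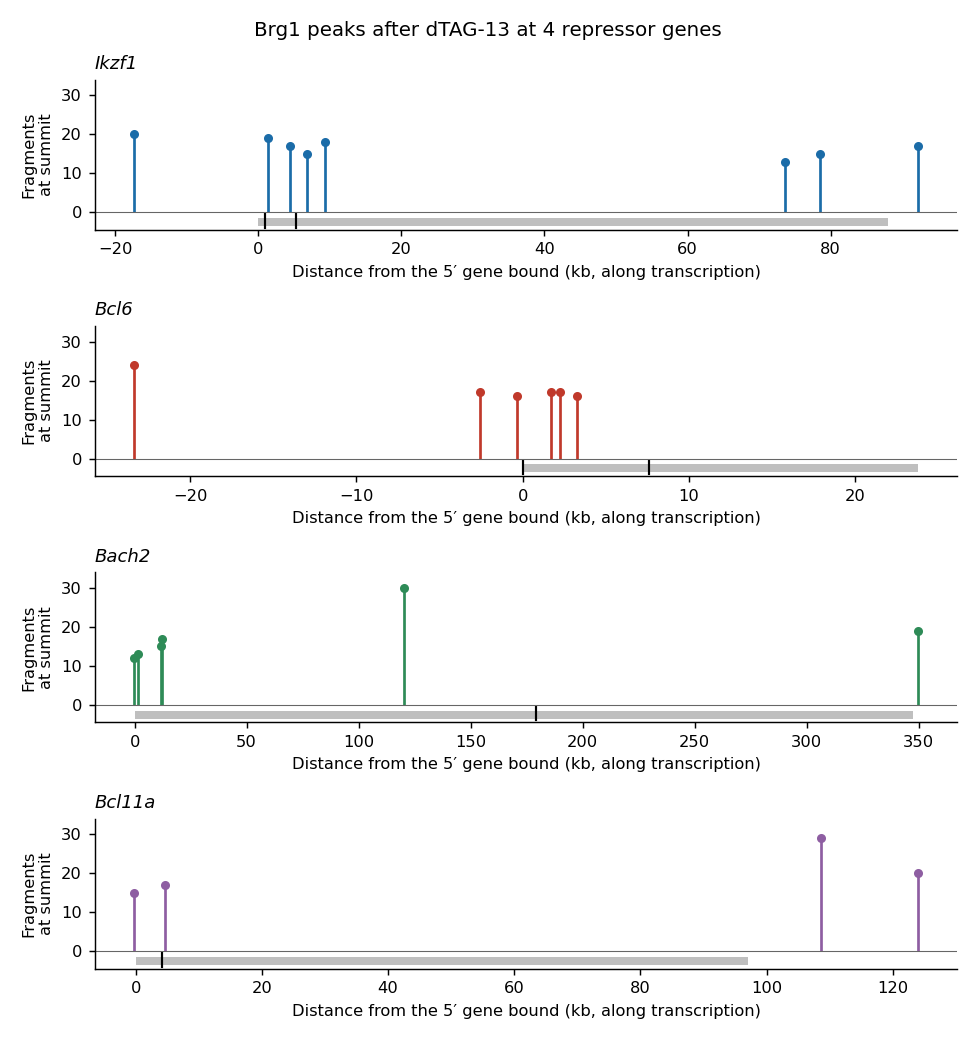
Brg1 peaks after dTAG-13 along the 4 genes, drawn as 1 stem per summit with its height in fragments (y axis) against the distance from the 5′ gene bound in kb (x axis). Grey bars are gene bodies and black ticks are annotated start sites. The tallest stems of Bcl6, Bach2 and Bcl11a (24, 30 and 29 fragments) stand away from the starts, and those of Ikzf1 lie between 13 and 20.

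Ikzf2, Ikzf3 and Gfi1 had no peak in any of the 4 lists, and no peak lay within 100 kb of their bodies. The nearest Brg1 summit after dTAG-13 was 235 kb from Gfi1 (chromosome 5, 107716655 to 107725805) and belonged to Dipk1a. For Ikzf3 (chromosome 11, 98464610 to 98546031) it was 293 kb away and belonged to Rapgefl1. For Ikzf2 (chromosome 1, 69531207 to 69687351) it was 2528 kb away and belonged to Mreg. Within the Ikaros family, Brg1 peaks were thus found at Ikzf1 and not at its relatives in this list, a difference between single genes that has no test.

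As a group the 24 peaks were of ordinary height for their list. Their fragments at the summit ran from 12 to 30 with a median of 17, against a median of 18 over all 5206. The median fold enrichment was 4.32 against 4.45, and the median width 322 bp against 323 bp. Of the 24, 10 stood above the median of the list by p. Local backgrounds were between 1.06 and 1.95 times the lowest of the library, and none was over 5 times it.

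**Figure D3:**
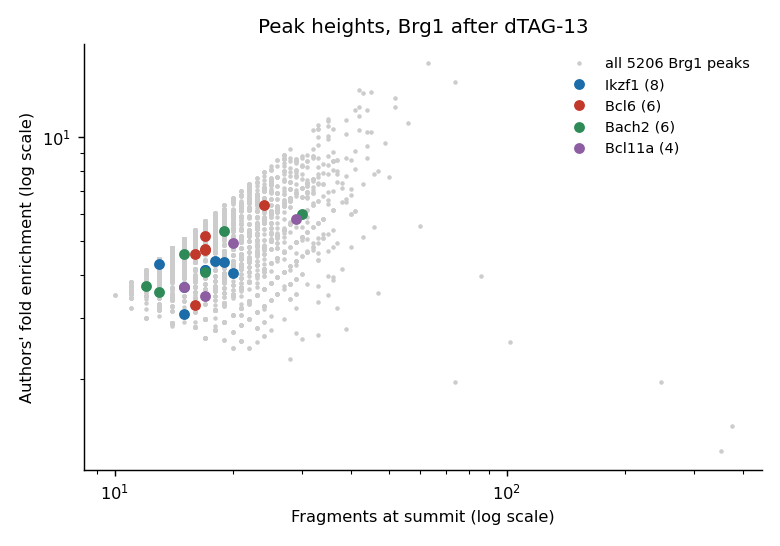
The authors' fold enrichment (y axis, log scale) against fragments at the summit (x axis, log scale) for every Brg1 peak after dTAG-13 in grey, with the peaks of the 4 genes in colour. The coloured points lie inside the grey cloud, between 12 and 30 fragments.

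The positions of the peaks were set beside those of the list. Summits lay inside the gene in 14 of 24 cases (58.3%, 36.6 to 77.9%), against 52.1% of all Brg1 summits after dTAG-13 inside a protein-coding gene. Within 1 kb of a bound of their own gene lay 3 of 24 (12.5%, 2.66 to 32.4%), those just before Bcl6, Bach2 and Bcl11a. Of the list, 18.6% lay within 1 kb of a bound of any protein-coding gene, a looser measure. Both intervals hold the value of the whole list, but they are wide and treat peaks of the same gene as independent. Likeness to the list was not tested. Exons and introns were not told apart.

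None of the 24 peaks overlapped an EBF1 peak or a Brg1 peak of the DMSO list. For EBF1 this follows from the lack of any EBF1 peak near these genes, and the whole-list share is not given here. With 312 EBF1 peaks in DMSO beside 5206 Brg1 peaks, 0 of 24 does not set these genes apart. The nearest EBF1 summit in DMSO was between 351 and 10554 kb away, and the nearest Brg1 summit in DMSO between 153 and 18023 kb. Of all 5206 Brg1 peaks after dTAG-13, 126 (2.42%) overlapped one in DMSO, so 0 of 24 is near the share of the whole list. A gain of Brg1 at these genes and the greater depth of the dTAG-13 library cannot be told apart. To pass the lowest p in the DMSO list at its lowest background takes 7 fragments, which corresponds to 24.8 in the dTAG-13 library, and 2 of the 24 peaks had as many.

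Scaled to the DMSO background, none of the 24 reached 5.89, the lowest −log10 p among Brg1 peaks in DMSO. The scaled values ran from 2.14 at Ikzf1 to 5.59 at the upstream Bcl6 peak. Of the whole list 297 peaks (5.7%) did reach it. With the scatter of counting included, in closed form, 2.79 of the 24 (11.6%) were expected to pass, against 767 of 5206 (14.7%). The expected shares were highest for the tallest peaks of Bach2 (48.5%), Bcl11a (43.9%) and Bcl6 (36.2%), and were at most 10.6% at Ikzf1. The DMSO list held 0 peaks at these genes, beside the 2.79 expected at its depth from the dTAG-13 heights. Those heights belong to peaks that had already passed in the dTAG-13 list, so the expected numbers can be too high. Beside the 767 expected over the whole list, the DMSO list held 234 peaks, and 126 dTAG-13 peaks overlapped one. The difference between 0 and 2.79 was not tested, and with 1 library per condition the 0 does not show Brg1 absent in DMSO.

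**Figure D4:**
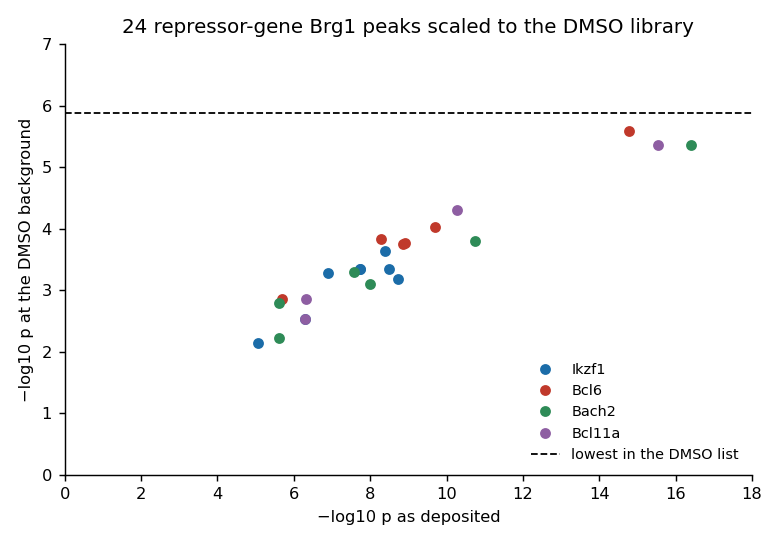
The 24 Brg1 peaks by their deposited −log10 p (x axis) and by the −log10 p after scaling fragments and background to the DMSO library (y axis). The dashed line is the lowest value in the DMSO list, 5.89, and every point lies under it.

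Motifs were searched on both strands of the 250 bases before each of the 8 start sites that the promoter table gives for 5 of the genes. Ikzf2 and Ikzf3 were not matched there. The EBF1 palindrome TCCCNNGGGA was in none, and it is in 0.779% of the 32851 windows of the table. TGGGAA, an Ikaros-type core that shares letters with the end of the EBF1 motif, stood at base 90 of the Bcl11a window, and is in 21.6% of all windows.

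TTCNNNGAA, the spaced repeat that Bcl6 and STAT factors bind, was at base 27 of the Bcl11a window and base 133 of the Bcl6 window shown above. It was also at 1 place before the Bach2 start and at 3 places before the downstream Bcl6 start, and is in 7.02% of all windows. AAATCA, a Gfi1-type core, was at bases 136 and 152 before the downstream Ikzf1 start and is in 12.4% of windows. TGANTCA, the core of AP-1 and Bach sites, was in none of the 8 and is in 6.75%. CCGGAA, an ETS core that can overlap TTCNNNGAA, was before the Bach2 start and the downstream Bcl6 start and is in 12.03% of windows. The window before the upstream Ikzf1 start held no match to any of these, and 82% of its bases are G or C, against a median of 52.4% over all windows. A match is a run of letters and does not show binding.

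Related genes were read by the same rule. Of 6 relatives of the members, Bach1 had a Brg1 peak after dTAG-13 (chromosome 16, 87700137 to 87700370, inside the gene, 17 fragments) and none had one in DMSO. Gfi1b, the close relative of Gfi1 in erythroid and megakaryocyte cells, had an EBF1 peak in DMSO inside the gene, at chromosome 2, 28621802 to 28621981, with a fold enrichment of 8.14. Ikzf4, Ikzf5, Bcl6b and Bcl11b had no peak in any list.

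Partners and corepressors of the members had a Brg1 peak after dTAG-13 in 4 of 26 cases (15.4%), near the 12.2% of all genes. These were the small Maf gene Maff (13 fragments), the NuRD subunit Gatad2a (20), the CoREST gene Rcor1 (13) and the corepressor Ctbp1 (18), each with 1 peak. The peaks of Gatad2a and Ctbp1 lay 5.21 and 29.2 kb from the gene, and those of Maff and Rcor1 inside it. In DMSO none of the 26 had a Brg1 peak.

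Other repressors of the B lineage had a Brg1 peak after dTAG-13 in 12 of 20 cases (60%). The tallest was inside Foxp1 (26 fragments, 15 peaks), which encodes a forkhead repressor. Next came Id2 (25 fragments, 3 peaks), an inhibitor of E proteins, whose tallest peak lay 93.0 kb from the gene. Peaks of 22 fragments were assigned to Zbtb7a (1.82 kb away), Cbfa2t3 (2.96 kb away) and Tle4 (inside). In DMSO 3 of the 20 had a Brg1 peak, against 0.818% of protein-coding genes: Id3, Zbtb18 and Cux1. At each of these the DMSO Brg1 peak lay at an EBF1 peak of the DMSO list, 15.9 kb from Id3, 16.5 kb from Zbtb18 and 22.3 kb from Cux1. The share of all DMSO Brg1 peaks that lie at an EBF1 peak is not given here, so these 3 have no base to be read against. Zeb1 had an EBF1 peak 31.1 kb away, which made 4 of the 20 with an EBF1 peak in DMSO, against 1.28% of protein-coding genes. The 7 genes described here had neither, and no test was made between the lists.

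**Figure D5:**
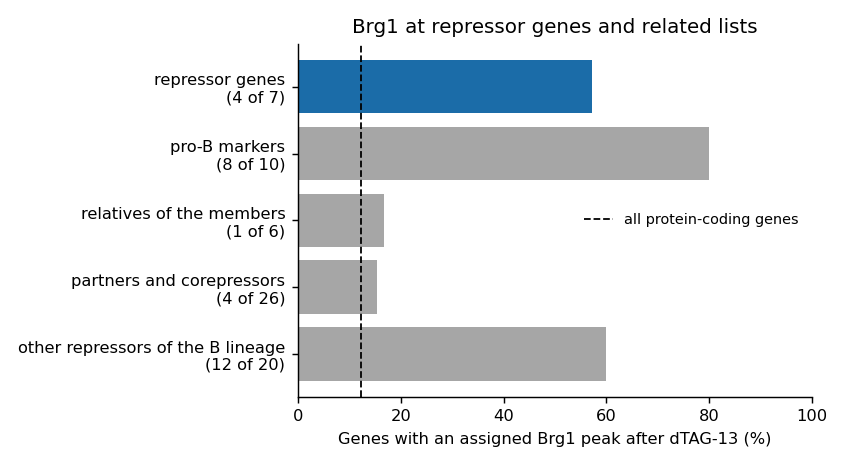
Share of genes with an assigned Brg1 peak after dTAG-13 (x axis, percent) for the 7 repressor genes in blue and 4 other lists in grey, with the number of genes beside each. The dashed line is the 12.2% of all protein-coding genes, and the 57.1% of the repressor genes rests on 4 of 7.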

How the data were processed

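The 4 narrowPeak lists of the immunoprecipitations were used, and the 4 inputs were not analysed here. Peaks on GRCm38 came from MACS2 2.2.7.1, and Bowtie2 2.3.5.1, deepTools 3.3.2 and SAMtools 1.10 are also named, per the submitters' processing notes. Settings and controls: not given in the sources used here. Each deposited list was called on 1 library. The deposited fold enrichment is a ratio of summit pileup to local background, the deposited −log10 p and −log10 q are the authors', the deposited score is derived from the −log10 q and was not used, and the other deposited column gives the summit.

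Summits were assigned with the gene bounds of RefSeq GRCm38.p6, and start sites and strand came from its promoter table. Fragments and background of each Brg1 peak were solved from fold enrichment and p. A whole number fitted 100% of peaks, within 0.02 in −log10 p, and the solver was tested on simulated data. Depth scaling multiplied both by the ratio of the lowest backgrounds. Overlap meant at least 1 bp. No p-value was computed, since each group has 1 library. The genes named were all members, every listed gene with a peak in an EBF1 list or in DMSO Brg1, and the 3 tallest per list after dTAG-13, ties and lists of 4 in full. One result of the partner list is not reported here. Members and lists were chosen with earlier results of these data known, and the motifs and the closed-form depth value were chosen after seeing the data. Python 3.11.15, SciPy 1.17.1 and pandas 2.3.3 were used.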

Additional observations from a re-analysis of the deposited data

How the results depend on the processing

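The counts of 0 (EBF1 peaks in both conditions, Brg1 peaks in DMSO, peaks found in both conditions and EBF1 overlaps) were 0 under every alternative run, among them a reciprocal overlap of 50%, summits within 250 bp and intervals within 1 kb. The number of genes with a Brg1 peak after dTAG-13 was 4 within 20 kb, with genes of any type and without high-background peaks. It was 3 at a −log10 q of at least 5 or 10 or a fold of at least 5, which dropped Ikzf1. Their 24 peaks became 22 within 20 kb and 18 with genes of any type, where Bcl6 had 3 and Bcl11a 2. They became 6 at a −log10 q of at least 5, 3 at 10 and 5 at a fold of at least 5. At the same settings the whole list of 5206 kept 2212, 411 and 1525 peaks. Shortened to the 234 highest peaks, the dTAG-13 list held 0 of these genes and 0 of these peaks, and scaled to the DMSO background it also held 0 and 0, by fewer peaks and fewer fragments. The closed-form depth value, chosen after seeing the data, was 2.79 peaks. No paired analysis was possible because each group has 1 library. The depth of DMSO limits every comparison of conditions.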

Other observations

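Foxp1, with 15 Brg1 peaks after dTAG-13, had the most of all protein-coding genes. Its highest peak lay inside the gene on chromosome 6, 99053065 to 99053364, with a fold enrichment of 6.89, and Foxp1 had no Brg1 peak in DMSO and no EBF1 peak in either list. Id3 had 3 Brg1 peaks after dTAG-13, the tallest of them inside the gene (136144798 to 136145172, 17 fragments). The Id3 peak in DMSO was 15.9 kb away (136127805 to 136127988, 10 fragments). Positions of the other Id3 peaks after dTAG-13 are not given here, and these fragments are not scaled for depth.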
